A study of Homo sapiens with 6 samples.

Results

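The genes described here build and police the kinetochore, the protein platform that ties each chromosome to the mitotic spindle. They were chosen by name as 43 genes of centromere chromatin, the kinetochore, the spindle checkpoint and the chromosomal passenger complex, of 20046 genes with a named probe on the array. All 43 had at least 1 probe, 73 probes in all, and 60 of these probes, from 42 genes, had a detection p-value below 0.05 on at least 3 of 6 arrays and were tested. CENPQ, an inner kinetochore gene, was detected on 1 of 3 shCypB arrays and 1 of 3 shCON arrays and was not tested. U251 cells, an established human glioblastoma line kept in DMEM with fetal bovine serum, carried a lentiviral pLKO1.5 shRNA against cyclophilin B (shCypB, 3 arrays) or a non-target control shRNA (shCON, 3 arrays). Both groups had been transduced 5 days before total RNA was taken, and each held 1 shRNA sequence, so loss of cyclophilin B and other effects of that sequence cannot be told apart. The labels call the samples of a group biological replicates but do not say that they came from separate transductions, so p-values measure the spread between these samples.

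A kinetochore forms on nucleosomes that hold the histone variant CENPA, which the chaperone HJURP delivers with the help of the MIS18 complex. The inner kinetochore, or constitutive centromere-associated network, binds these nucleosomes, and the outer KNL1, MIS12 and NDC80 complexes grip microtubules. Spindle checkpoint proteins on unattached kinetochores hold back the anaphase-promoting complex, and the chromosomal passenger kinase Aurora B releases faulty attachments. In dividing human cells, glioblastoma cells among them, transcripts of many of these genes are known to peak in G2 and mitosis. E2F sites, CCAAT boxes and the cell cycle genes homology region (CHR) of their promoters take part in that timing.

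Promoter sequence is shown for the members at both ends of the response, so that the searched elements can be seen beside the values given further on. The RefSeq promoter table (GRCh38.p14) holds 300 bases a gene, 250 before the annotated start and 50 after it, for 35 of the 43 members. CENPM, which had the fourth greatest change, is named only. SPC24 (chr19:11155733-11156032, minus strand), AURKB (chr17:8210176-8210475, minus strand), CENPI (chrX:101100808-101101107, plus strand) and MAD2L1 (chr4:120066799-120067098, minus strand) had the greatest falls among called members with an entry. CENPW (chr6:126339865-126340164, plus strand) and SKA2 (chr17:59155137-59155436, minus strand) are the 2 members that rose, and they were added after their values were seen. Each sequence runs 5′ to 3′ on the gene's own strand. Capitals mark matches on either strand. For the CHR, the letters TTTGAA were searched along with the form TTTAAA, which is its own reverse complement. For the CCAAT box, the letters were CCAAT. For E2F, the form TTCCCGC was searched along with the form TTGGCGC, and with the form TTCGCGC as well.
SPC24: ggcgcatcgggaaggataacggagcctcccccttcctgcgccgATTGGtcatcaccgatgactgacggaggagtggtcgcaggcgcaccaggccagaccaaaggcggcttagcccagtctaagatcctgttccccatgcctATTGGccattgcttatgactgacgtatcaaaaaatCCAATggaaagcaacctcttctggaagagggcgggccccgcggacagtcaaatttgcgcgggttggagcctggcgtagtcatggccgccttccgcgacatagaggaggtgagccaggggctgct
AURKB: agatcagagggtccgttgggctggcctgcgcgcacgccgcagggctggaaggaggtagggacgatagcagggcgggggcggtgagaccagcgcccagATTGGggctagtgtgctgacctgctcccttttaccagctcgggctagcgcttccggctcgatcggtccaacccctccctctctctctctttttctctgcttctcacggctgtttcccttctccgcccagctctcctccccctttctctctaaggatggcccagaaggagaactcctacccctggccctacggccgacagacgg
CENPI: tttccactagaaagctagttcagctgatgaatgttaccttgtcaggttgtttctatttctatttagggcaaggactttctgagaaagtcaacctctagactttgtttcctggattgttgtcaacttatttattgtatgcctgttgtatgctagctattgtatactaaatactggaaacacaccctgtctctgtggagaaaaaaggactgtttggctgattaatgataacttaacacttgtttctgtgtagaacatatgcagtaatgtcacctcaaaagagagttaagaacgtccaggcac
MAD2L1: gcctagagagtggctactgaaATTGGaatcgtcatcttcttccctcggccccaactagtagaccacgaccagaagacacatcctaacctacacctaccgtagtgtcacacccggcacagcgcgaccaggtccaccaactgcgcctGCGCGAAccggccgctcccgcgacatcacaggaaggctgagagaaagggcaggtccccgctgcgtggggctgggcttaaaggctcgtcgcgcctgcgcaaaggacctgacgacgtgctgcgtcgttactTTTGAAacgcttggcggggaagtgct
CENPW: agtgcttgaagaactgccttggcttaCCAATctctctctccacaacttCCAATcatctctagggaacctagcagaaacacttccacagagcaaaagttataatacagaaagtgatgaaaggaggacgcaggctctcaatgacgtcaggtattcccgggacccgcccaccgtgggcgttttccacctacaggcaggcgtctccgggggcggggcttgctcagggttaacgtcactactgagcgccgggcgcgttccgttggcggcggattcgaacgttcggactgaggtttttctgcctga
SKA2: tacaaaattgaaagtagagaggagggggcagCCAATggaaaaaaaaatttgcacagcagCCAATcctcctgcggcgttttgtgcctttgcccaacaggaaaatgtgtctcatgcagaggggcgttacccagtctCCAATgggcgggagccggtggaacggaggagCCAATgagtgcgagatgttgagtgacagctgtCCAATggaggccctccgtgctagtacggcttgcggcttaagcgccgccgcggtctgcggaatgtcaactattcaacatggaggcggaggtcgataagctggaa
Of the 4 fallers shown, MAD2L1 held a CHR form, which began 25 bases after the start, a CCAAT box and an E2F form. SPC24 held 3 CCAAT boxes and AURKB held 1, with neither a CHR nor an E2F form in this window. CENPI held no searched element in its window. Each window was placed by the annotated start, and whether these cells start transcription there was not checked. An element missing from a window is therefore not shown to be missing from the promoter in use. CENPW held 2 CCAAT boxes and SKA2 held 5.

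A CHR form stood in 19 of the 35 member promoters (54.3%), against 15.9% of 8598 promoters of tested genes and 24.3% of all 27305 promoters of the table. CCAAT boxes were in 68.6% of member promoters, against 38% of those of tested genes and 35.7% of the table, and any E2F form in 40%, against 18.2% and 11.2%. Among members, a CHR form was in 10 of 17 promoters of genes that fell and in 9 of 15 promoters of genes that did not pass. CCAAT boxes were in 76.5% of promoters of members that fell and 53.3% of those that did not pass, and E2F forms were in 47.1% of promoters of members that fell and 33.3% of those that did not pass. These shares come from few promoters and their differences were not tested. Median log2 change was -0.43 for members with a CHR form and -0.36 for those without it, against 0.02 and 0.03 for all tested genes. In 2 member promoters, PMF1 and ZW10, a CCAAT box overlapped an E2F form. A letter match is not a measured binding site.

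Between 16597 and 18700 of 47231 probes were detected per array, and across the 17608 tested probes, which are not independent replicates, Pearson r was 0.957 to 0.965 between arrays of different groups and 0.987 to 0.994 between arrays of the same group. The targeted gene PPIB had log2 signals of 4.58, 4.44 and 4.81 on shCypB arrays, against 6.05, 5.68 and 5.35 on shCON arrays. It was undetected on all shCypB arrays, so its fall is given as at least 1.45-fold, measured against the lowest detected signal of each array. The limma fit to the signals themselves called PPIB lower (adjusted p = 0.0034), and the bound itself was not tested. This is the only PPIB probe here, and its shCON values lie little above the lowest detected signals (log2 5.12 to 5.29). Which transcript it reads was not checked, so it is a weak measure of the knockdown. Of 8 glial and glioma markers, 7 were detected on all 6 arrays, GFAP, VIM and NES among them, and S100B was detected on none. Of those 7, 4 fell and SOX2 rose (0.35, adjusted p = 0.045). The intermediate filament gene GFAP had log2 signals of 7.93, 7.45 and 7.57 in shCypB, against 9.44, 9.60 and 9.43 in shCON (-1.84 ± 0.14, adjusted p = 0.00013), and FABP7 (-1.07), NES (-0.66) and SOX9 (-0.45) were the other falls. VIM and CD44 did not pass at their brightest probes, but at their other probes VIM fell (-0.39, adjusted p = 0.015) and CD44 rose (0.35, adjusted p = 0.030). The summed signal of the glial list lay between 22991 and 24799 in shCypB and between 24259 and 27682 in shCON. Of 4 leukocyte markers with a probe, PTPRC and CD3E were detected on no array and CD68 on all 6. CD14 was detected on 2 of 3 shCypB arrays and on all 3 shCON arrays, and neither CD68 nor CD14 was called. Of 3 endothelial markers, CDH5 was detected on no array, and VWF on 1 shCypB array and 2 shCON arrays, without a call. Of 4 neuron markers, RBFOX3 and STMN2 were detected on no array. The summed signal of the neuron markers lay between 230 and 245 in shCypB and between 102 and 125 in shCON, without overlap. Only SYT1 of this list was detected on enough arrays to be tested, so the sum does not show a rise of several neuron markers. SYT1 had log2 signals of 7.19, 7.32 and 7.28 in shCypB, where all 3 arrays detected it, and 5.14, 5.35 and 4.93 in shCON, where 1 array did, so no fold is given. The part of the glial and neuron markers in the members' results was not tested.

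Of 42 tested members, 21 fell (50%), 2 rose (4.76%) and 19 did not pass at a Benjamini-Hochberg adjusted p below 0.05 over all tested probes. Across all 10517 tested genes, 20.8% were lower and 23.1% were higher by the same rule, and across the tested probes 18.2% were lower and 20.3% were higher. The 21 falls ran from 1.26-fold for SPDL1 to 3.67-fold for SPC24. SPC24, AURKB, CENPI, CENPM and MAD2L1 fell by at least 2-fold, which is 11.9% of tested members, against 4.08% of all tested genes. This count depended on the background correction and on how a gene's probes were read. Without background correction CENPI was at -0.75 and MAD2L1 at -0.96 on the log2 scale, and in the authors' table at -0.77 and -0.94. With the mean of its tested probes MAD2L1 was at -0.72. SPC24, AURKB and CENPM kept a fall of at least 2-fold in every alternative. The share of all tested genes under those settings was not counted. Median log2 change was -0.42 over the 42 members and 0.03 over all tested genes, and 36 of the 42 changes were negative. The representative probe of 41 members was detected on all 6 arrays, so no fall here passed the filter through the shCON arrays alone.

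**Figure D1:**
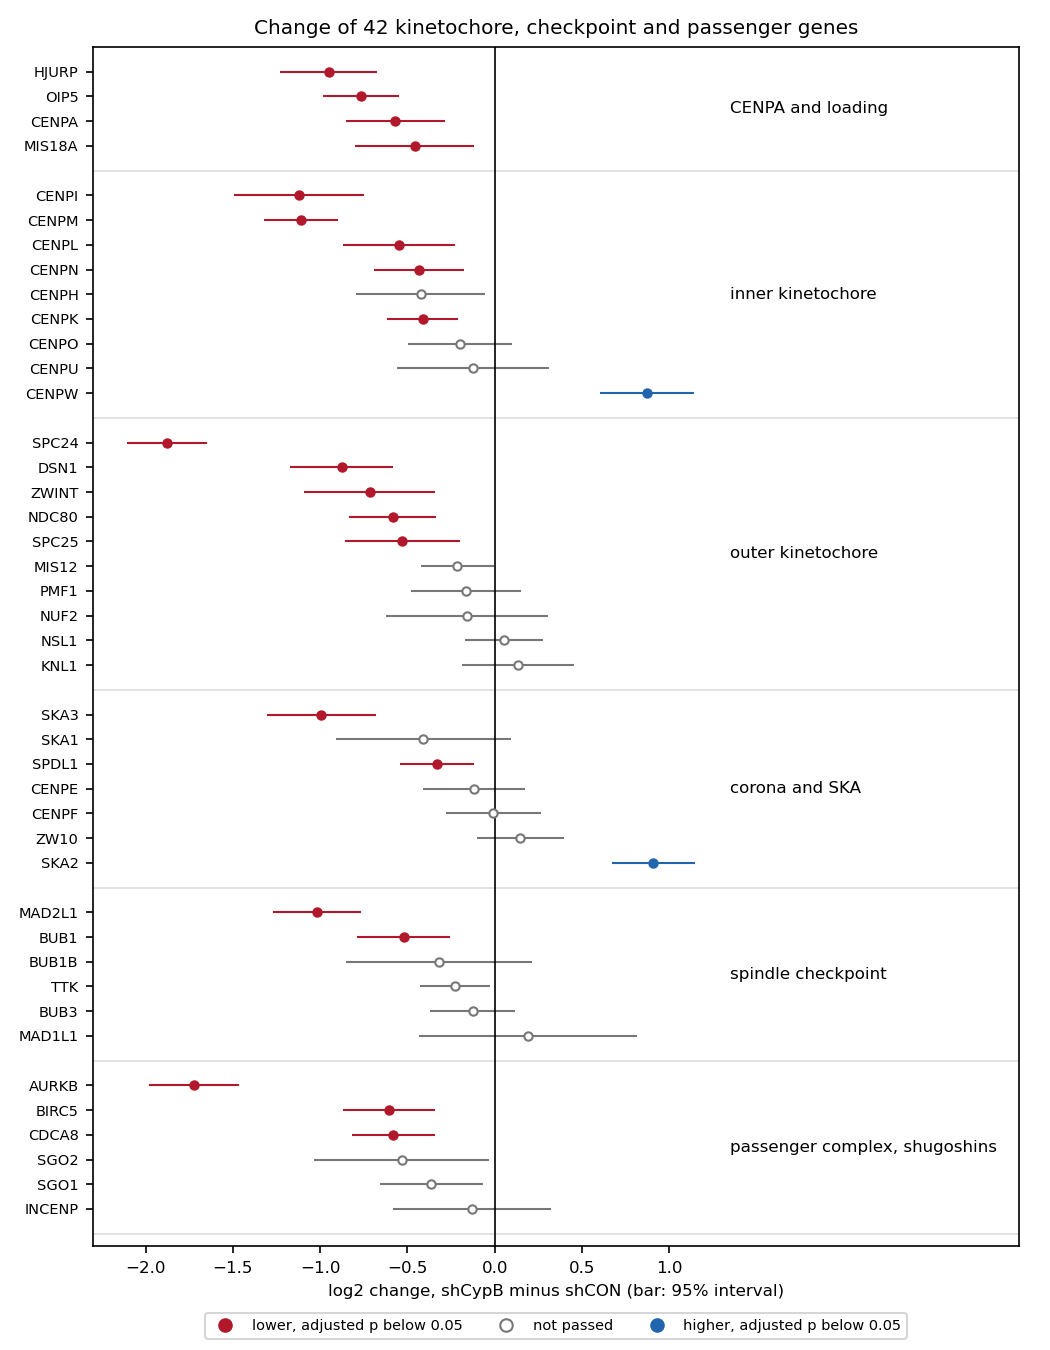
Log2 change (shCypB minus shCON) of each of the 42 tested members on the x axis, grouped by role, with points for the change and bars for its 95% interval. Red points mark 21 falls, blue points the 2 rises, CENPW and SKA2, and open points the 19 genes that did not pass.

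All 3 shCypB values lay below all 3 shCON values for 26 of 42 members (61.9%), against 26.8% of all tested genes. The opposite order held for 2 members (4.76%), against 30.1% of all tested genes. The median member stood 0.15, 0.26 and 0.20 below its own 6-array mean on shCypB arrays 1, 2 and 3, and 0.18, 0.22 and 0.20 above it on the shCON arrays. Every array of a group therefore sat on the same side. Between arrays of a group, the SD of a member's log2 signal had a median of 0.14 in shCypB and 0.13 in shCON (n = 3 each). In bulk RNA, fewer cells in G2 and mitosis and less transcript per cell cannot be told apart.

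**Figure D2:**
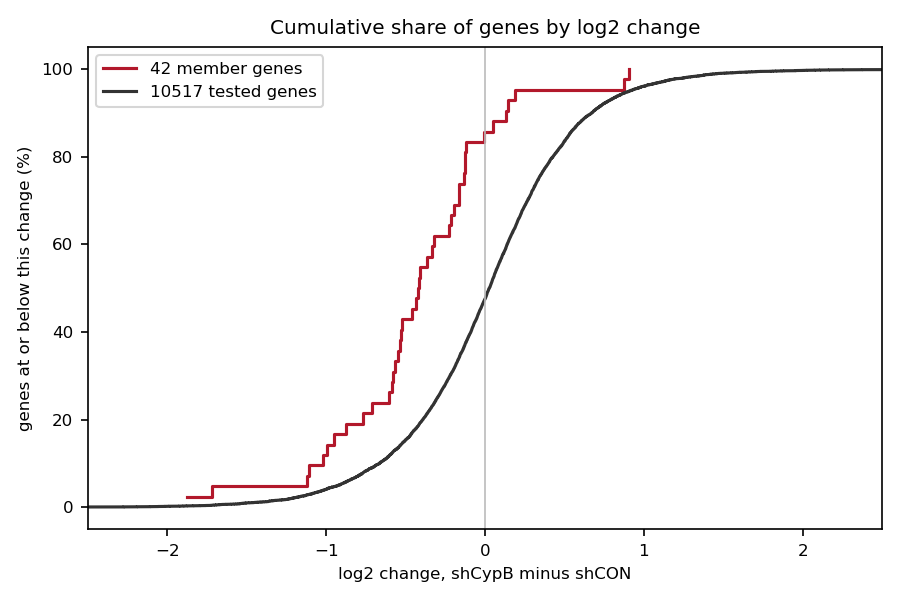
Cumulative share of genes (y axis, percent) at or below each log2 change (x axis, shCypB minus shCON), for the 42 member genes (red) and all 10517 tested genes (black). The member curve lies to the left, with a median of -0.42 against 0.03.

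Members of the CENPA loading pathway all fell. HJURP, the CENPA chaperone, had log2 signals of 8.35, 8.10 and 8.39 on shCypB arrays, against 9.27, 9.08 and 9.33 on shCON arrays. It fell by 0.95 ± 0.12 on the log2 scale (SE, adjusted p = 0.00086), and the groups lay well apart. OIP5, the MIS18-beta subunit of the loading complex, had 8.89, 8.76 and 8.88 in shCypB and 9.55, 9.59 and 9.68 in shCON, a log2 change of -0.77 ± 0.09 (adjusted p = 0.00077). CENPA itself had 9.11, 8.83 and 8.96 in shCypB and 9.38, 9.68 and 9.55 in shCON, a 1.48-fold fall (adjusted p = 0.0083). For these 3 genes, the highest shCypB array was below the lowest shCON array. MIS18A, the other MIS18 subunit measured, fell by 0.46 ± 0.15 (adjusted p = 0.041). This was the weakest call of the group, with shCON replicate 2 at 7.04 next to a highest shCypB value of 6.94, and it was lost without any 1 array other than shCON replicate 2 (adjusted p of 0.081 to 0.12), without the filter on dim probes (0.097) and with the replicate number as a block (0.066).

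In the inner kinetochore, 5 of 9 tested members fell, CENPW rose and 3 did not pass. CENPI, which acts with CENPH, CENPK and CENPM in recruiting outer kinetochore proteins, had log2 signals of 5.91, 6.48 and 6.14 in shCypB, against 7.33, 7.14 and 7.44 in shCON (log2 change -1.12 ± 0.16, adjusted p = 0.0015). CENPM had 8.83, 8.68 and 8.76 in shCypB, against 9.84, 9.88 and 9.88 in shCON (-1.11 ± 0.09, adjusted p = 0.00017). Both groups of CENPM values were tight, and its 3 probes fell, with log2 changes of -1.11, -0.89 and -1.13. Within the same subcomplex CENPK fell by 0.41 ± 0.09 (adjusted p = 0.0084), and CENPH had a change of -0.42 ± 0.16 that did not pass (adjusted p = 0.070) although its groups did not overlap. CENPH was called without shCON replicate 3 (-0.53, adjusted p = 0.046). It was also called with offset 50 in the background correction (-0.31, adjusted p = 0.043) and without that correction (-0.27, adjusted p = 0.0497). The same held for limma on the authors' deposited table (-0.31, adjusted p = 0.026) and with detection p below 0.01 on all 6 arrays (adjusted p = 0.029). The 95% intervals of CENPM (-1.32 to -0.89) and CENPK (-0.62 to -0.21) did not overlap. They were read at different probes, and a difference between the genes was not tested.

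CENPL and CENPN, partners in recognising the CENPA nucleosome, fell by 0.55 ± 0.14 and 0.43 ± 0.11 (adjusted p of 0.017 and 0.018). CENPN had 8.99, 9.28 and 9.06 in shCypB and 9.59, 9.59 and 9.46 in shCON. These moderate falls depended on the number of arrays. The CENPL call was lost without shCypB replicate 2 or 3 (adjusted p of 0.056 and 0.063). That of CENPN was lost without shCypB replicate 1 or 3 or shCON replicate 1 or 2 (adjusted p of 0.052 to 0.067). CENPO and CENPU, of the subcomplex that also holds CENPQ, had changes of -0.20 ± 0.13 and -0.12 ± 0.19 (adjusted p of 0.27 and 0.64), with overlapping groups.

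CENPW moved against its neighbours. This small histone-fold protein pairs with CENPT to contact centromeric DNA, and its gene had log2 signals of 10.31, 10.30 and 10.22 in shCypB, against 9.45, 9.55 and 9.20 in shCON. All shCypB values were higher, a rise of 0.87 ± 0.11 on the log2 scale, or 1.83-fold (adjusted p = 0.0010). CENPW was higher with an adjusted p below 0.05 under all 15 alternatives tried. Its histone-fold partners, which are not among the 43 genes, did not share this direction. CENPS had 7.48, 7.14 and 7.26 in shCypB and 8.60, 8.33 and 8.46 in shCON, a fall of 1.17 ± 0.12 (adjusted p = 0.00044). CENPX fell by 0.66 ± 0.09 (adjusted p = 0.0011). CENPT was at -0.32 ± 0.12 (adjusted p = 0.081), and its dimmer probe at -0.52 (adjusted p = 0.016).

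The NDC80 complex is a rod of 4 proteins, of which NDC80 and NUF2 reach the microtubule and SPC24 and SPC25 anchor the rod to the kinetochore. SPC24 had the greatest change of the 42 members. Its log2 signals were 8.02, 7.91 and 8.14 in shCypB, against 9.88, 9.89 and 9.92 in shCON, a 3.67-fold fall (-1.88 ± 0.10, adjusted p = 3.7e-05). SPC25, its direct partner, had 7.35, 7.59 and 7.25 in shCypB and 7.84, 8.16 and 7.77 in shCON (-0.53 ± 0.14, adjusted p = 0.021). NDC80 had 8.10, 7.90 and 7.94 in shCypB and 8.44, 8.65 and 8.61 in shCON, a fall of 0.58 ± 0.11 (adjusted p = 0.0042). The interval of SPC24, -2.10 to -1.65, lay clear of those of SPC25 (-0.86 to -0.20) and NDC80 (-0.83 to -0.34). Each gene was read at its own probe, and a difference between the genes was not tested. NUF2 was at -0.16 ± 0.20 (adjusted p = 0.57), with shCON replicate 1 at 6.72 below all 3 shCypB arrays. Without that array NUF2 was called at -0.40 (adjusted p = 0.045). The SPC25 call was lost without shCypB replicate 1 or 3 or shCON replicate 2 (adjusted p of 0.055 to 0.076) and without the filter on dim probes (0.052).

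**Figure D3:**
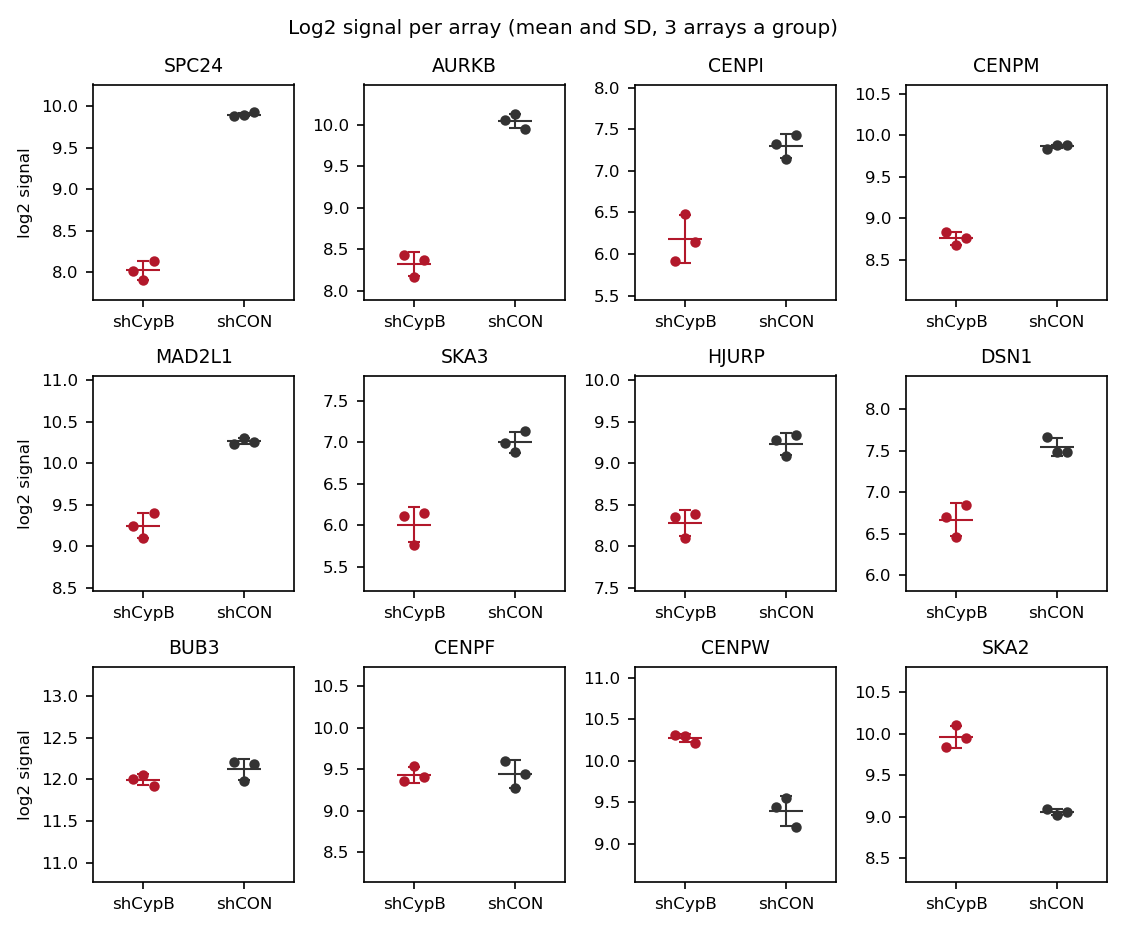
Log2 signal (y axis, each panel spanning an equal log2 range) of 12 members on the 3 shCypB arrays (red) and the 3 shCON arrays (black), with mean and SD. SPC24 and AURKB show the widest gaps, BUB3 and CENPF overlap between groups, and CENPW and SKA2 are higher in shCypB.

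Of the MIS12 complex, which joins the inner and outer kinetochore, DSN1 alone was called. It had 6.70, 6.46 and 6.85 in shCypB, against 7.67, 7.49 and 7.48 in shCON, a fall of 0.88 ± 0.13 (adjusted p = 0.0015). MIS12 was at -0.21 ± 0.09 (adjusted p = 0.10), PMF1 at -0.16 ± 0.14 (0.39) and NSL1 at 0.05 ± 0.10 (0.71). The 95% interval of DSN1, -1.17 to -0.58, did not overlap those of PMF1 (-0.48 to 0.15) and NSL1 (-0.17 to 0.28). Here too the probes differ, and a difference between the genes was not tested. ZWINT, which links KNL1 to the checkpoint machinery, had 8.08, 7.94 and 8.25 in shCypB and 9.01, 8.92 and 8.48 in shCON (-0.71 ± 0.16, adjusted p = 0.011). KNL1, the scaffold for BUB proteins, was read near background, on 2 of 3 shCypB arrays and 1 of 3 shCON arrays, and a change in it was not detectable here (0.13 ± 0.14, adjusted p = 0.49).

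At the outermost layer, the fibrous corona and the SKA complex showed falls, a rise and little movement side by side. The SKA complex follows shrinking microtubule ends. SKA3 had 6.11, 5.77 and 6.15 in shCypB, against 6.99, 6.88 and 7.13 in shCON (-0.99 ± 0.13, adjusted p = 0.0011). SKA1 was dim, at 5.72, 6.08 and 6.50 in shCypB and 6.73, 6.58 and 6.22 in shCON, and did not pass (-0.41 ± 0.21, adjusted p = 0.18). In shCypB, SKA3 was about as dim as SKA1. The SKA3 fall was smaller without background correction (-0.63) and in the authors' table (-0.65), and was called in both. SKA2, the third subunit, had 9.84, 10.11 and 9.95 in shCypB and 9.10, 9.02 and 9.05 in shCON, a 1.88-fold rise (0.91 ± 0.10, adjusted p = 0.00054). The groups of SKA3 and SKA2 did not overlap and pointed opposite ways within 1 complex. The SKA2 call held under all 15 alternatives, but its dimmer tested probe was at 0.39 ± 0.15 and did not pass (adjusted p = 0.069).

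Among corona proteins, SPDL1, an adaptor for dynein, fell by 0.33 ± 0.09 (adjusted p = 0.024), the least of the 21 falls. That call was lost with the replicate block (adjusted p = 0.067) and without any 1 of the arrays other than shCON replicate 1 (0.052 to 0.083). CENPF, a large corona protein, had 9.36, 9.54 and 9.41 in shCypB and 9.61, 9.28 and 9.45 in shCON. Its change of -0.01 ± 0.12 had a 95% interval of -0.28 to 0.26. CENPE, a kinesin that carries chromosomes to the spindle equator, was at -0.12 ± 0.13 (interval -0.41 to 0.17). ZW10, which brings dynein to kinetochores, was at 0.15 ± 0.11 (interval -0.10 to 0.39). These intervals all lie inside a change of 1.5-fold either way.

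For the spindle checkpoint, 2 of 6 genes fell and 4 did not pass. MAD2L1, whose protein MAD2 binds CDC20 to delay anaphase, had log2 signals of 9.25, 9.10 and 9.40 in shCypB, against 10.23, 10.31 and 10.26 in shCON. That is a 2.02-fold fall (-1.02 ± 0.11, adjusted p = 0.00042), and its dimmer probe fell by 0.42 (adjusted p = 0.022). BUB1, the kinase that marks centromeres for shugoshin, had 8.48, 8.29 and 8.19 in shCypB and 8.93, 8.72 and 8.87 in shCON (-0.52 ± 0.11, adjusted p = 0.0096). Groups of both genes were apart. TTK, which encodes the kinase MPS1 at the head of the checkpoint, had 8.47, 8.43 and 8.41 in shCypB and 8.71, 8.64 and 8.64 in shCON. These groups did not overlap, but the change was small and did not pass (-0.23 ± 0.09, adjusted p = 0.076). TTK passed with the stricter detection filter (adjusted p = 0.041) and in the fit that averaged each gene's probes (0.046). It has 1 tested probe, so averaging left its change at -0.23. That fit covered 10517 genes in place of 17608 probes.

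BUB3, which carries BUB1 and BUBR1 to KNL1, had 12.01, 12.06 and 11.92 in shCypB and 12.21, 11.98 and 12.19 in shCON (-0.13 ± 0.10, adjusted p = 0.38). BUB1B, the gene of BUBR1, was at -0.32 ± 0.23 (adjusted p = 0.31) and MAD1L1, the kinetochore anchor of MAD2, at 0.19 ± 0.27 (0.62). For these 2 genes a single array decided the call. MAD1L1 had 6.25, 5.99 and 6.12 in shCypB and 5.51, 6.60 and 5.67 in shCON. Without shCON replicate 2 it was called higher (0.53, adjusted p = 0.020). Without shCON replicate 3, which had 6.49 against 7.20 and 7.24 on the other shCON arrays, BUB1B was called lower (-0.56, adjusted p = 0.042).

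The chromosomal passenger complex consists of the Aurora B kinase, its scaffold INCENP, and survivin and borealin, which direct it to the centromere. AURKB, the kinase gene, had 8.43, 8.16 and 8.37 in shCypB, against 10.06, 10.13 and 9.95 in shCON, a 3.30-fold fall (-1.72 ± 0.11, adjusted p = 7.0e-05). BIRC5, which encodes survivin, had 10.05, 9.82 and 10.08 in shCypB and 10.67, 10.46 and 10.64 in shCON (-0.61 ± 0.11, adjusted p = 0.0047). CDCA8, which encodes borealin, had 9.22, 9.19 and 9.24 in shCypB and 9.83, 9.65 and 9.91 in shCON (-0.58 ± 0.10, adjusted p = 0.0036). All 3 genes were lower on every shCypB array. The AURKB interval of -1.98 to -1.46 did not overlap those of BIRC5 (-0.87 to -0.34) and CDCA8 (-0.82 to -0.34). These genes were read at different probes, and a difference between them was not tested. INCENP was at -0.13 ± 0.19 (adjusted p = 0.63), with overlapping groups.

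Shugoshins guard centromeric cohesion and are recruited through BUB1. SGO1 had 7.08, 6.78 and 6.86 in shCypB and 7.11, 7.44 and 7.26 in shCON. SGO2 had 6.66, 6.70 and 6.84 in shCypB and 7.14, 6.88 and 7.77 in shCON. Neither gene overlapped between groups, and neither passed (SGO1 -0.36 ± 0.13, adjusted p = 0.056, and SGO2 -0.53 ± 0.22, adjusted p = 0.089). Their calls turned on the processing. Without background correction both passed as lower (adjusted p of 0.043 and 0.038), as they did when limma was run on the authors' deposited table (0.037 and 0.029). Leaving out 1 array made SGO1 pass without shCypB replicate 1 or shCON replicate 1 (adjusted p of 0.049 and 0.045), and SGO2 without shCON replicate 2 (-0.73, adjusted p = 0.030).

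Of the 19 members that did not pass, 15 had a negative change, and 5 of them (CENPH, MIS12, TTK, SGO1 and SGO2) had all shCypB values below all shCON values. Of the 18 detected on all 6 arrays, which leaves out KNL1, 11 had a 95% interval inside a change of 1.5-fold either way. For the other 7 (CENPH, NUF2, SKA1, BUB1B, MAD1L1, SGO1 and SGO2) a change of 1.5-fold or more is within the interval.

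Probes of a gene mostly told the same story. Of 16 members with 2 or more tested probes, 14 had the same call at every probe and 14 had the same sign. MIS18A and SKA2 were called at their brighter probe and not at the other. BUB3 and NSL1 had probes of both signs, all of them near 0 and not called. At their dimmer tested probes, CENPA was at -0.53, OIP5 at -0.64, BIRC5 at -0.59, ZWINT at -0.88 and SPC25 at -0.80, and all 5 of these fell.

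**Figure D4:**
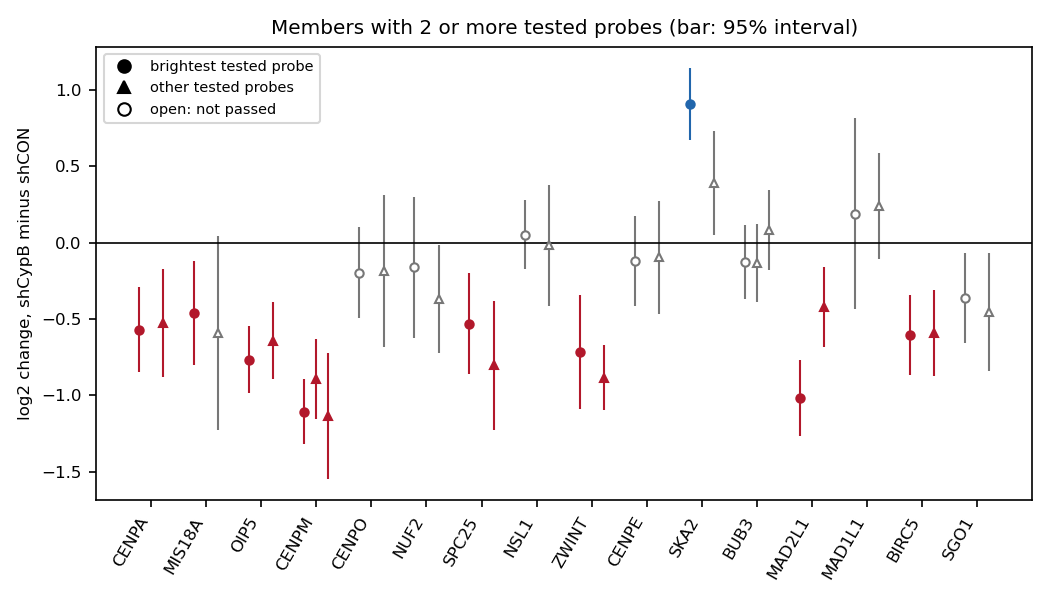
Log2 change (y axis, shCypB minus shCON) with its 95% interval at each tested probe of the 16 members that have 2 or more, circles for the brightest probe and triangles for the others, open where the probe did not pass. The 3 CENPM probes lie at -1.11, -0.89 and -1.13, while the 2 SKA2 probes lie at 0.91 and 0.39.

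Of 24 listed kinetochore and centromere genes outside the 43, 22 were tested. Of these 8 fell (36.4%), 3 rose (13.6%) and 11 did not pass, with a median log2 change of -0.23. Across all tested genes 20.8% were lower and 23.1% were higher, with a median of 0.03. Whether the 22 genes differ from the members was not tested. Beside CENPS and CENPX, the falls included KNTC1, whose protein ROD works with ZW10, with 7.28, 6.87 and 7.16 in shCypB and 7.92, 7.79 and 8.07 in shCON (-0.83 ± 0.14, adjusted p = 0.0027). CENPB, which binds a DNA motif of centromeric repeats, had 10.36, 10.40 and 10.57 in shCypB and 11.30, 11.27 and 11.21 in shCON (-0.81 ± 0.10, adjusted p = 0.00073). Among genes of the anaphase-promoting complex and its coactivators, 3 of 15 tested fell (20%), 1 rose (6.67%) and 11 did not pass, with a median of 0.05. The share of this list that fell was close to the 20.8% of all tested genes, and the share that rose was below their 23.1%. CDC20, the coactivator that the checkpoint holds captive, had 11.35, 11.15 and 11.14 in shCypB and 12.45, 12.41 and 12.64 in shCON, a 2.44-fold fall (adjusted p = 0.00020). The subunit genes ANAPC16 (-0.80 ± 0.22, adjusted p = 0.026), ANAPC13 (-0.32 ± 0.11, 0.048) and CDC26 (0.34 ± 0.09, 0.019) were closer to the threshold. All 3 calls were lost with the replicate block, which left 1 gene of this list lower. The count of genes lower was also 1 without shCypB replicate 2, without shCypB replicate 3 and without shCON replicate 2, and without the filter on dim probes.

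General markers of cycling cells that are not members fell alongside. Of 16 such genes, 13 fell and 3 did not pass, where 20.8% of all tested genes were lower. The median log2 change of the 16 was -0.61, against 0.03 over all tested genes. A second tested probe did not pass for PCNA (0.008, adjusted p = 0.97), KIF11 (-0.24, 0.14), DLGAP5 (-0.24, 0.074) and UBE2C (-0.39, 0.13), while HMMR fell at both of its probes. MKI67, the gene of the proliferation antigen Ki-67, had log2 signals of 5.74, 5.68 and 5.83 in shCypB, against 6.99, 6.90 and 6.85 in shCON (-1.16 ± 0.09, adjusted p = 0.00017). It was read at 1 tested probe, and its shCypB values lie little above the lowest detected signals (log2 5.12 to 5.29). The summed linear signal of the 16 genes lay between 13220 and 14570 on shCypB arrays and between 19872 and 20418 on shCON arrays, without overlap. Whether the share of cycling cells accounts for the members' changes was not tested.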

How the data were processed

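Total RNA of U251 cells was read on 6 one-colour Illumina bead arrays, 3 shCypB and 3 shCON, grouped by sample title. Per the file headers, the deposited table gives a linear bead signal intensity per probe before any normalization. A detection p-value is deposited beside each intensity, again per the file headers. The authors' processed table, also linear intensity, ranked the probes of each array like its signals (Spearman rho 0.999 or higher). The sources used here do not state its normalization, and its array medians lay between 77.9 and 80.4. Partek is named in the submitters' processing notes, without version or role.

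Signals were background corrected (normexp, negative control level inferred from detection p, offset 16), quantile normalized and log2 transformed with limma 3.58.1 in R 4.3.3. The 17608 probes with detection p below 0.05 on at least 3 of 6 arrays were fitted with lmFit and eBayes, group as the only term, and p-values were adjusted by Benjamini-Hochberg over all of them (two-sided). All adjusted p in the text are from such limma fits. Errors beside log2 changes are standard errors, and other errors are SDs (n = 3). With 3 arrays a group, the number of arrays limits the precision. A gene was read at its brightest tested probe. Symbols (1 for 30113 probes, several for 8, and 17110 probes unlisted) were updated to GRCh38.p14 RefSeq names.

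Where no array of a group detected a probe, its level there is a bound, the mean of the higher of its own value and the lowest detected signal of each array (log2 5.12 to 5.29). Members and lists were chosen with earlier results of these data known. The text names all members, PPIB, up to 4 called genes of each of 2 other pathway lists and marker genes as counts. CENPT, MKI67 and single markers were named after their values were seen. The fit was tested on simulated data. Alternatives were another background correction, offset, normalization and filter, array weights, the replicate number as a block, the mean of a gene's probes, the authors' table and leaving out each array.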

Additional observations from a re-analysis of the deposited data

How the results depend on the processing

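Of the 21 members that fell, 16 kept their call in every alternative run, as did both that rose. The 19 that did not pass included 12 with the same outcome throughout, and no called member changed sign. The number of members lower was 19 with the replicate block (all 19 among the 21, without MIS18A and SPDL1), 19 without the filter on dim probes and 25 with detection p below 0.01 on all 6 arrays, and it ran from 16 to 21 when 1 array was left out. Their median log2 change moved to -0.31 without background correction and to -0.31 in the authors' table, where the median of all tested genes was 0.02. Median scaling put that of all tested genes at -0.04. The replicate numbers did not pair the arrays (correlations of deviations -0.10, -0.11 and 0.01 for same-numbered arrays). For the anaphase-promoting complex list, the genes higher numbered 2 without background correction, 2 with offset 50, 2 when each gene's probes were averaged, 3 in the authors' table, 3 with the strict detection filter, and 0 in limma with the replicate block (2 at an unadjusted p below 0.05), and 0 to 2 with 1 array left out. Genes of that list lower numbered 1 without the filter and 1 with the block, and 1 to 4 with 1 array left out. PPIB stayed lower in each alternative that tested it, and the strict filter left it out. The cause of these shifts was not tested. Dim probes such as KNL1 and SKA1 limit what a change there could show.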

Other observations

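The 13 member probes that were detected on fewer than 3 arrays belong to 11 genes, 10 of which had another probe in the fit. Of the 13 probes, 9 were detected on no array. The other 4 were a CENPQ probe detected on 1 shCypB array and 1 shCON array, an NSL1 probe and an INCENP probe each detected on 1 shCypB array only, and a ZWINT probe detected on 2 shCON arrays only. At these levels no change is given.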
